A study of Caenorhabditis elegans with 2 samples.

Results

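The 10 genes examined here control developmental timing in larvae of the nematode Caenorhabditis elegans: daf-12, lin-14, lin-28, hbl-1, lin-46, lin-41, lin-29, lin-42, myrf-1 and myrf-2. They were chosen by name, as 10 of 19973 protein-coding genes, and a region on the genome was given to a gene when its summit lay inside the gene or within 2000 bp of its 5′ end. By that rule the 10 genes held 85 of the 30000 regions in the list called on both replicates pooled. The regions came from ChIP-seq, in which DNA bound by a protein is recovered with an antibody and sequenced, of the nuclear hormone receptor NHR-77 carried as an eGFP fusion. The material was whole L2 larvae of both sexes of strain OP353, which the labels give as unc-119(tm4063) III with the wgIs353 insertion that targets nhr-77; they name no promoter for it and list the age as unknown. There was 1 group with 2 biological replicates and no group to compare it with, so the comparisons are between genes, regions and replicates. Larvae were used whole, so signal from a few cells cannot be told apart from weak signal in many. Each region carries a score given by the authors' peak caller on a scale that the sources do not define, and the files do not tell the read depth. The peaks that passed the authors' reproducibility threshold were the 415 highest pooled regions, with a lowest score of 27.1. The tagged gene itself, nhr-77, held 0 pooled regions, and unc-119 held 3, the strongest at rank 8181.

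In worms, timing (heterochronic) genes set which cell fates are expressed at each larval stage. Early fates depend on LIN-14, LIN-28 and HBL-1, whose levels fall as the microRNA lin-4 and the let-7 family of microRNAs rise, and later repression of LIN-41 by let-7 frees LIN-29 to start the switch to adult skin. DAF-12 is a nuclear hormone receptor that binds steroid ligands and ties these choices to food and to the decision between reproductive growth and the dormant dauer stage. LIN-42, the relative of the clock protein Period, and the MYRF proteins connect timing with the molting cycle and with rewiring of larval neurons.

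The 151 bases centred on a summit are printed for 3 regions on which the counts turn: the strongest region of daf-12 (chrX:10637694-10637844, plus strand, 45.7% GC), the strongest region of myrf-1 (chrII:10501603-10501753, minus strand, 42.4% GC), and that of lin-42 (chrII:1246952-1247102, minus strand, 59.6% GC). The regions of daf-12 and myrf-1 were past the authors' threshold and that of lin-42 was just short of it. Each is the reference sequence of build WBcel235 (ce11), 5′ to 3′ on the gene's strand, and lies in an intron of its gene; that of lin-42 also overlaps the annotated non-coding RNA genes F47F6.13 and F47F6.15. Capitals mark matches, on either strand, to 4 short motifs: the nuclear receptor hexamer AGGTCA, the DAF-12 hexamer AGTGCA, the repeat GAGAGA, and the E-box, spelled CACGTG. Only the myrf-1 sequence of the 3 held a match, 1 to AGTGCA and 1 to GAGAGA, the latter read on the opposite strand.
daf-12: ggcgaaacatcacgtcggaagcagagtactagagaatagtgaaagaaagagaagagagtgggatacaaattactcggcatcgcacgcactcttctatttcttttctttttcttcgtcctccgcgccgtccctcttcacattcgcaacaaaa
myrf-1: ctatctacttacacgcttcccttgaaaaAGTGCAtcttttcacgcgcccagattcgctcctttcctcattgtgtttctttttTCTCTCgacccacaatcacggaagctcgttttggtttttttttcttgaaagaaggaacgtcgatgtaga
lin-42: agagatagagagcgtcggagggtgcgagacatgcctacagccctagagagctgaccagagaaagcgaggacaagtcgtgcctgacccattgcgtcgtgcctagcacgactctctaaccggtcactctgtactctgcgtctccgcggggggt

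NHR-77 regions past the threshold lay at 3 of the 10 timing genes, daf-12, lin-41 and myrf-1, with 1 region each. Over all protein-coding genes the share with such a region was 3.04%, or 607 genes. Most of the 10 genes are long, and a longer window meets a peak more often. Windows of the same length were therefore laid at every other protein-coding gene, starting 2000 bp upstream of its 5′ end. The shares of these windows with a peak, summed over the 10 lengths, came to 0.626 genes, against the 3 observed. The 10 genes were named with results of these data in view, so this count carries no test. Of the 85 regions, 3.53% were past the threshold, compared with 1.38% of all pooled regions, and 20% were among the 3000 highest regions, which make up 10% of the list. Their median score was 8.76 and the median over the whole list was 7.98, so most regions at these genes were weak ones.

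Of the 10 genes, 9 had a strongest region that outscored the middle window of equal length. The percentile of the strongest region among such windows had a median of 86.1 over the 10 genes in the pooled list. In the replicates taken alone that median was 68.5 in replicate 1 and 83.5 in replicate 2, with 8 and 10 genes above the 50th percentile. Each list's percentile is that of the gene's strongest region in that list, which need not be the same region in all 3. The number of regions was high as well: 9 genes held more regions than the median window of their length. The median percentile of that number was 89.1. For comparison, 4 of 269 genes named nhr (1.49%) and 1 of 63 genes named ceh (1.59%) had a peak past the threshold, with median percentiles of 52.6 and 48.5. Both shares are not matched for length, and no sum over equal-length windows was made for either group. The difference of either group from the timing genes was not tested.

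**Figure D1:**
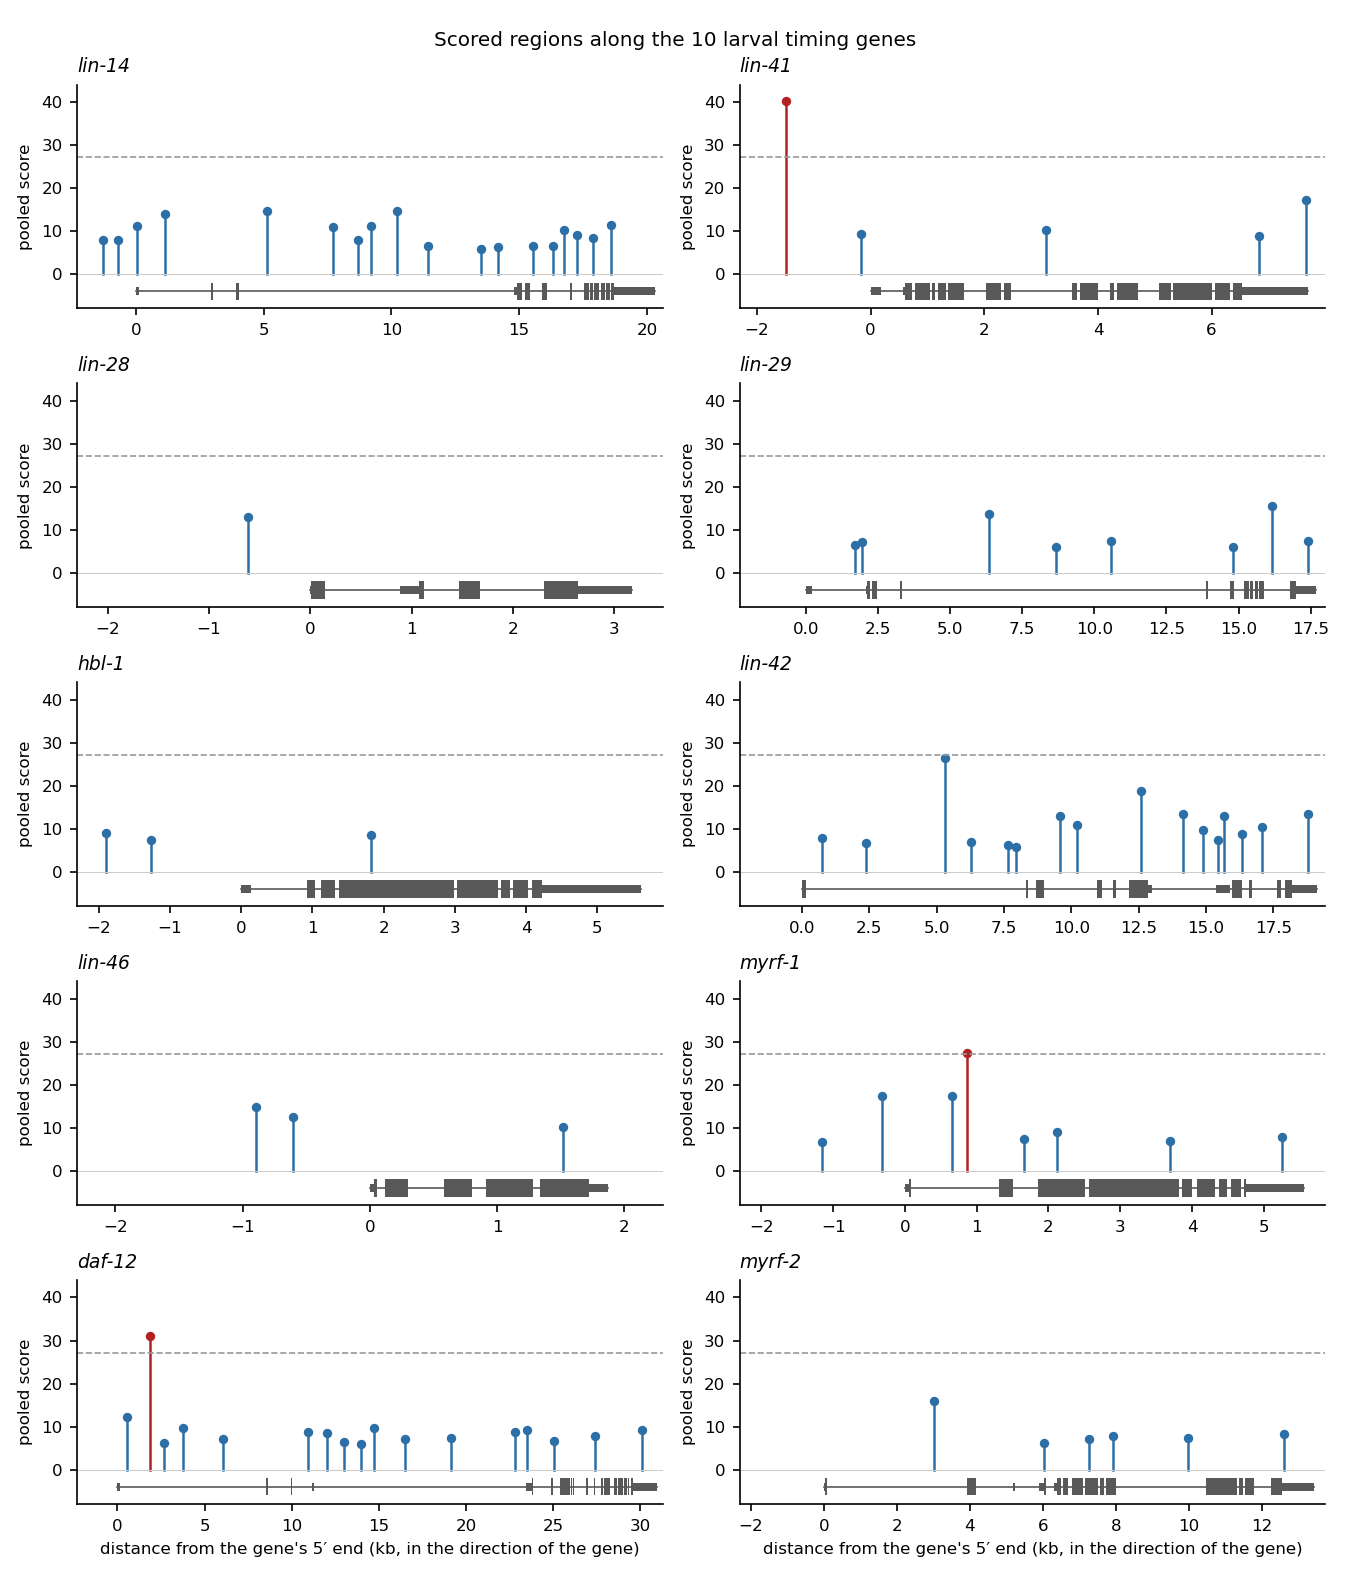
Pooled regions at each of the 10 timing genes, plotted by distance of the summit from the 5′ end of the gene, with one panel per gene and the authors' score on the vertical axis; the line marks the lowest score past the threshold, 27.1. Only daf-12, lin-41 and myrf-1 have a point above the line, and lin-42 has one just under it at 26.5.

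The hormone receptor gene daf-12 (WBGene00000908) carried its strongest region in intron 1, with the summit 1861 bp downstream of the 5′ end (chrX:10637604-10637933). Its score was 31.0 in the pooled list, at rank 297, 14.4 in replicate 1, at rank 120, and 17.0 in replicate 2, at rank 628. Scores of different lists are on different scales, so the ranks carry the comparison: the region stood near the head of both replicates and higher in replicate 1. Among windows of equal length its score lay at percentile 90.9 in the pooled list, 96.2 in replicate 1 and 82.6 in replicate 2, and 12.2% of these windows held a peak past the threshold. The gene spans 30968 bp and held 17 regions, against a median of 10 in equal windows. No annotated 5′ end of another gene was nearer to the summit.

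The early timing genes lin-14, lin-28 and hbl-1, and lin-46, had no peak past the threshold. In lin-14 (WBGene00003003, chromosome X), which encodes the nuclear factor repressed by lin-4, there were 18 regions against a median of 6 in equal windows, which put the number at percentile 99.9. The strongest region of lin-14 was of moderate score, 14.7 at rank 2100, in intron 3 and 10232 bp from the 5′ end, and the start of the non-coding RNA gene T25C12.5 was 284 bp away. It was matched in replicate 2 at rank 1358, with a score of 13.2, and had no match in replicate 1, which held 11 regions of its own in the gene, the strongest 20204 bp from the 5′ end at rank 2595 (5.55). The score of lin-14 lay at percentile 65.7, 58.7 and 75.1 in the pooled list, replicate 1 and replicate 2, and 8.72% of equal windows held a peak. The gene thus stood higher by its number of regions than by its strongest score.

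At lin-28 (WBGene00003014), which encodes an RNA-binding protein that blocks let-7 maturation, there was 1 region, 613 bp upstream of the 5′ end, with a pooled score of 13.0 at rank 3211. It was matched in both replicates, at rank 7748 (score 3.82) in replicate 1 and rank 6406 (8.46) in replicate 2. In replicate 2 the strongest lin-28 region was another, 906 bp downstream of the 5′ end at rank 3291 (10.3). The percentiles of lin-28 were 82.7, 65.9 and 82.3 in the pooled list, replicate 1 and replicate 2, with a peak in 3.19% of equal windows. The pooled percentile depends on this 1 region: it was 15.8 with a reach of 500 bp, which leaves the region out, and 36.8 by number of regions. The Hunchback-like factor gene hbl-1 (WBGene00001824) was the weakest of the 10, with 3 regions and a strongest score of 8.92 at rank 11100, 1900 bp upstream and nearer to the non-coding gene F13D11.20. That region had no match in either replicate; their strongest hbl-1 regions were 4006 bp downstream at rank 13759 (2.88) in replicate 1 and at -1283 bp from the 5′ end, rank 6302 (8.51) in replicate 2. The gene hbl-1 was the one gene under the 50th percentile in the pooled list, at 43.8, with 35.8 in replicate 1 and 62.0 in replicate 2, with a peak in 4.03% of equal windows; by number of regions it lay at percentile 69.3. The gene lin-46 (WBGene00003031), whose scaffold-like protein acts downstream of LIN-28, held 3 regions, the strongest at 14.7 and rank 2085, 898 bp upstream. The start of the neighbour R186.8 lay 25 bp from that summit, so the region sits at the neighbour's start as well as within reach of lin-46. It was matched in replicate 2 at rank 1177 (13.8) and not in replicate 1, where the strongest lin-46 region was another, 1547 bp downstream of the 5′ end at rank 7944 (3.77). The percentiles of lin-46 were 89.4, 71.0 and 93.3, with a peak in 2.81% of equal windows.

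Among the genes of the later switch, lin-41 and lin-29 differed. The lin-41 gene (WBGene00003026), for the TRIM-NHL RNA-binding protein that let-7 represses, held the strongest region of the 10, 1494 bp upstream of the 5′ end (chrI:9343825-9344154). Its score was 40.1 in the pooled list at rank 174, 9.72 in replicate 1 at rank 360 and 30.1 in replicate 2 at rank 158. Of the 10 genes it alone was within the 415 highest regions of each replicate taken alone, with percentiles of 97.9, 96.1 and 98.1, and 4.73% of equal windows held a peak. A second lin-41 region, chosen after its value was seen, scored 17.1 at rank 1307, with its summit in the annotated 3′ UTR and the start of the non-coding gene C12C8.6 nearer, at 1795 bp. That region stood low in both replicates, at rank 8979 (3.57) in replicate 1 and rank 27817 (4.63) in replicate 2. The lowest score in the list of replicate 2 was 4.41. The zinc finger gene lin-29 (WBGene00003015), which triggers the adult switch, had 8 regions, the strongest at 15.6 and rank 1718 in intron 10, 16160 bp from the 5′ end, with the start of hmg-12 closer at 2670 bp. It was matched at rank 7438 (3.88) in replicate 1 and 7528 (8.04) in replicate 2. Other lin-29 regions were the strongest in each replicate, at -1551 bp from the 5′ end, rank 4412 (4.69) in replicate 1 and 6371 bp downstream at rank 2009 (11.8) in replicate 2. The percentiles of lin-29 were 73.1, 45.0 and 68.8, with a peak in 7.94% of equal windows.

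The molting clock gene lin-42 (WBGene00018572) just missed the threshold and myrf-1 just passed it. In lin-42 the strongest region (chrII:1246862-1247191) scored 26.5 at rank 438, in intron 1 and 5332 bp from the 5′ end, with the start of the non-coding gene F47F6.13 59 bp away. It was matched at rank 335 (22.1) in replicate 2 and had no match in replicate 1, where the strongest lin-42 region was another, 9646 bp from the 5′ end, at rank 500 (8.81). The gene held 16 regions, against a median of 6, and its percentiles were 91.2, 90.4 and 93.1, with a peak in 8.37% of equal windows. The replicates thus gave lin-42 a high place by different regions.

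In myrf-1 (WBGene00004134), which encodes a membrane-tethered transcription factor of the myelin regulatory factor family, the region past the threshold (chrII:10501513-10501842) scored 27.3 at rank 405, in intron 1 and 863 bp from the 5′ end. It was matched in replicate 2 at rank 350 (21.8). Replicate 1 had no summit within 100 bp, and its strongest myrf-1 region, 645 bp from the 5′ end at rank 4254 (4.75), matched an overlapping pooled region that scored 17.3 at rank 1246. Another region with a score of 17.3, at rank 1245, lay 316 bp upstream of the gene and 205 bp from the start of the non-coding gene F59B10.7; it too was picked after its value was seen. The 8 regions of myrf-1 compared with a median of 2 in equal windows, the percentiles were 96.0, 72.6 and 96.6, and 4.0% of equal windows held a peak. Its relative myrf-2 (WBGene00008999) held 6 regions against a median of 4, the strongest at 16 and rank 1557 in intron 1, 3015 bp from the 5′ end. That region was matched at rank 1116 (14.0) in replicate 2 and not in replicate 1, where the strongest was 8242 bp from the 5′ end at rank 4460 (4.67). The percentiles of myrf-2 were 79.6, 52.8 and 84.3, with a peak in 6.59% of equal windows.

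**Figure D2:**
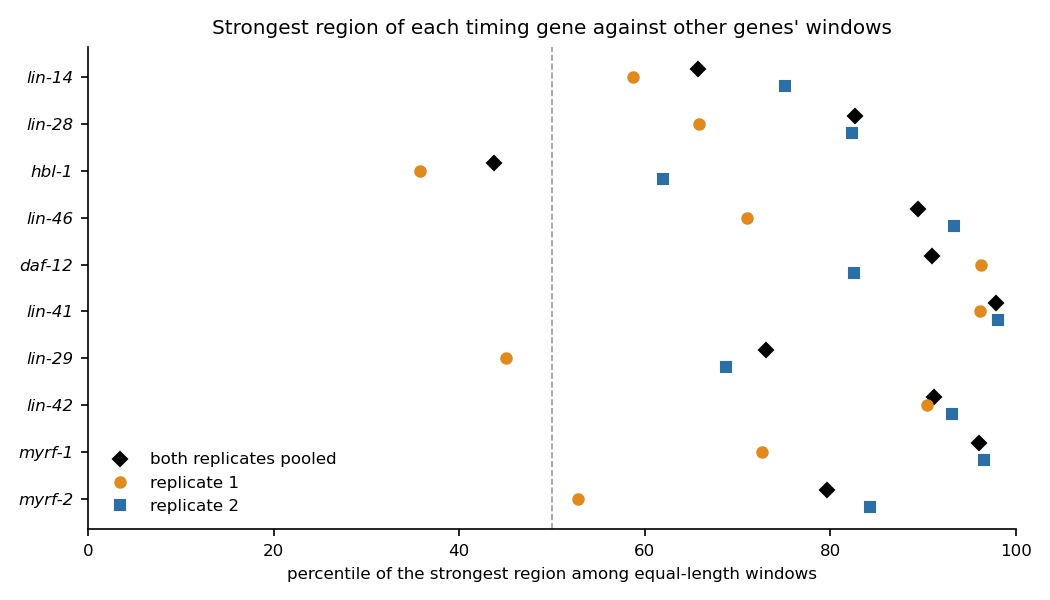
Percentile of each gene's strongest region among windows of equal length at other protein-coding genes (horizontal axis, percent), in the pooled list and in each replicate alone. The 3 lists place lin-41 between 96.1 and 98.1, whereas myrf-1 runs from 72.6 in replicate 1 to 96.6 in replicate 2.

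The replicates differed in how many of these regions they held. Of the 85 regions, 25 (29.4%) had a summit within 100 bp in replicate 1 and 61 (71.8%) in replicate 2, compared with 24.8% and 60.2% of all pooled regions. Both replicates held 15 of them (17.6%), against 10.9% of all pooled regions, 46 were matched in replicate 2 alone, 10 in replicate 1 alone and 14 in neither. Strongest regions followed the same split, with 4 of the 10 matched in replicate 1 and 9 in replicate 2. With the 415 highest regions of replicate 1 alone the genes with a peak were daf-12 and lin-41, and with those of replicate 2 alone they were lin-41, lin-42 and myrf-1. The relaxed list of replicate 1 was also shorter, 23233 nuclear regions against 30000, and its part in these differences was not tested.

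**Figure D3:**
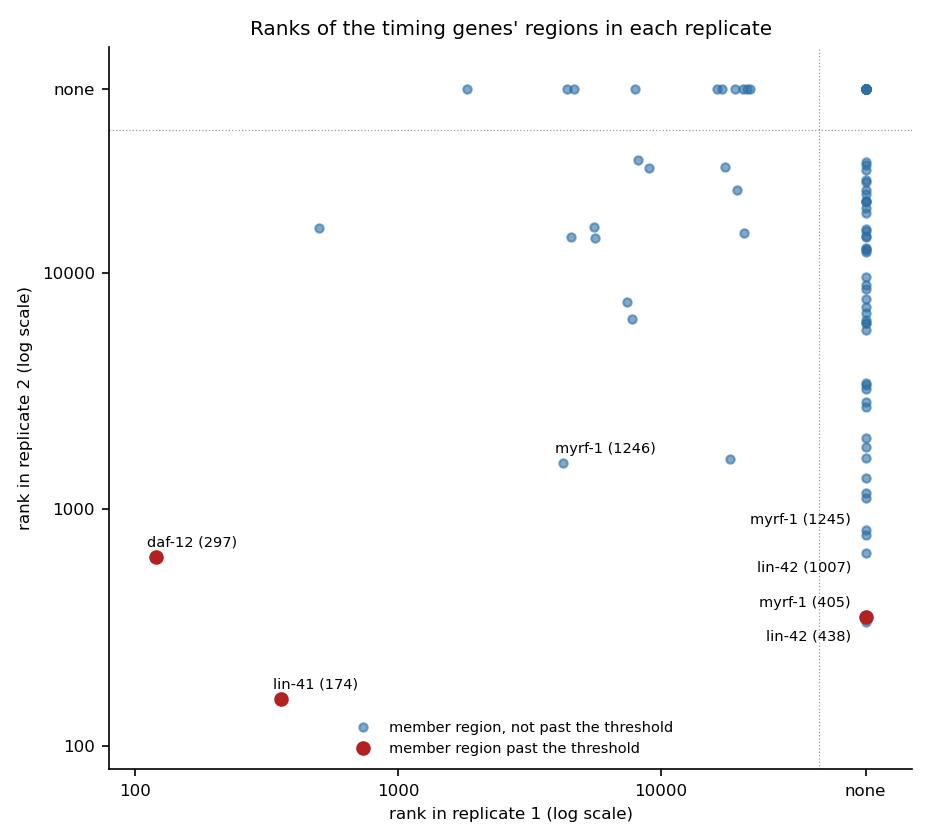
Rank of each of the 85 regions in replicate 1 (horizontal) and replicate 2 (vertical), both on log scales, with regions that have no summit within 100 bp set at none; pooled ranks are in brackets. Red points are past the threshold: daf-12 and lin-41 lie low on both axes, and myrf-1 has no match in replicate 1.

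By place, 53 of the 85 summits lay in introns, 11 upstream, 9 in coding exons, 7 in 3′ UTRs and 5 in 5′ UTRs. Most of the intron summits came from 3 long genes, 15 from daf-12, 14 from lin-14 and 12 from lin-42, and these places were not compared with those of all pooled regions. By distance, 3 summits were within 500 bp of its 5′ end and 55 were more than 5000 bp away, and 11 were within 500 bp of the 5′ end of any of its annotated transcripts. GC content in the 200 bp around the summit had a median of 40% at these genes, 34% over all pooled regions and 43.5% over the peaks past the threshold; its part in the scores was not tested. Of 25-base words in each gene's strongest region, 83.3% occurred once in the genome at lin-46, 89.9% at lin-28, 95.1% at lin-29 and 100% at the other 7 genes.

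The hexamer AGTGCA, which DAF-12 is known to bind, was found at these genes in a larger share of regions than over the whole list. On either strand of the 200 bp around the summit it occurred in 15 of 85 regions (17.6%), against 6.86% of all pooled regions, 7.82% of all regions weighted to the same GC content and 10.6% of peaks past the threshold. The 15 regions belonged to 5 genes, 6 of them to daf-12, 3 to lin-14, 3 to lin-42, 2 to myrf-1 and 1 to myrf-2, so they are not independent of each other. Of the strongest regions of the members, only those of myrf-1 and myrf-2 held AGTGCA. The peaks of daf-12 and lin-41 past the threshold did not, so the larger share comes mostly from weaker regions. GAGAGA occurred in 22 regions of 8 genes (25.9%), against 13.1% of all regions, 19.8% at the same GC content and 37.8% of peaks past the threshold. AGGTCA, the general nuclear receptor hexamer, occurred in 4.71%, against 4.86% of all regions, 5.43% at the same GC content and 4.1% of peaks past the threshold. The E-box CACGTG occurred in 3.53%, against 3.23% of all regions, 4.38% at the same GC content and 6.75% of peaks past the threshold. A match describes the letters in the window and shows neither binding by a factor nor a cause.

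Other genes of the timing pathway, 36 in all, were placed by the same rule. Of the 30 that encode proteins, 5 (16.7%) had a peak past the threshold, beside the 3.04% of all coding genes. That share is not matched for length, and no sum over equal-length windows was made for the 30. Among them, 22 were above the 50th percentile of equal windows, and the median percentile was 75.5. No region was held by 2 of the 30, daf-9 and pup-2. By role, a peak lay at 1 of 8 genes of hormone synthesis and DAF-12 cofactors, 2 of 9 genes of the microRNA machinery, and 2 of 13 other timing genes. The 8 hormone and cofactor genes, all named here after their values were seen, were spread in percentile. Above the 50th were din-1 (92.1), dhs-16 (86.6) and ncr-1 (74.3). Below it were strm-1 (43.8), daf-36 (40.4), hsd-1 (38.7), ncr-2 (16.2) and daf-9 (8.82). The DAF-12 cofactor gene din-1 had a region 761 bp upstream, with a score of 27.6 at pooled rank 392, and ranks of 437 and 582 in replicates 1 and 2. Of the machinery, ain-1, whose protein is a partner of Argonaute, had one 920 bp upstream (44.9, rank 129, replicate ranks 207 and 133). For xrn-2, an exonuclease that degrades microRNAs, the region was 1214 bp upstream (69.4, rank 51, replicate ranks 214 and 43) and 181 bp from the start of Y48B6A.1. All 5 had matches in both replicates, which of the members' 3 peaks held for daf-12 and lin-41. These peaks had all passed the authors' reproducibility threshold. The share of all peaks past it with matches in both replicates was not computed, so the counts have no background beside them.

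The remaining coding genes with a peak were puf-9 and nhl-2. The region of puf-9, which encodes a Pumilio protein that represses hbl-1, was 287 bp upstream of its 5′ end (65.4, rank 55), with ranks of 35 and 72 in replicates 1 and 2. The region of nhl-2, which encodes a TRIM-NHL cofactor of microRNA silencing, was 833 bp upstream (78.8, rank 43, replicate ranks 92 and 37) and 590 bp from the start of tag-340. Of the 6 non-coding genes, 5 encode microRNAs, and 1 of these had a peak, mir-241 of the let-7 family, beside 5.75% of all annotated microRNA genes. Its region (chrV:14366687-14367016), 569 bp upstream, scored 39.5 at rank 180, with ranks of 666 and 171 in replicates 1 and 2. The others were below the threshold: lin-4 at 21.4 and rank 699, let-7 at 17.5 and rank 1198, mir-48 at 16.1 and rank 1525, mir-84 at 10.4 and rank 6902, and the long non-coding RNA gene lep-5 at 15.3 and rank 1823. The windows of mir-48 and mir-241 overlap and share regions.

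**Figure D4:**
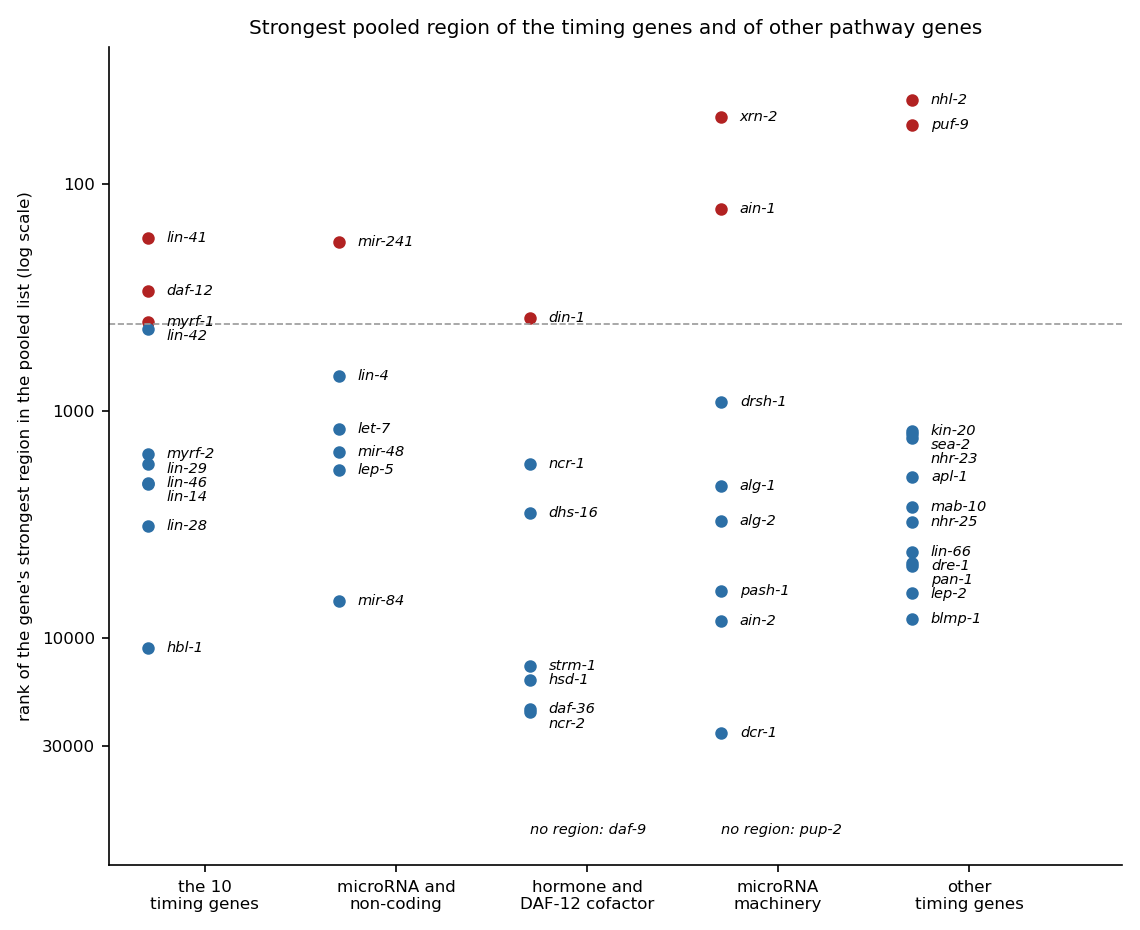
Pooled rank (log scale) of the strongest region at each member and at each other pathway gene that held one, with the authors' threshold marked at rank 415. Points within the threshold run from nhl-2 at rank 43 to myrf-1 at rank 405.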

How the data were processed

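ChIP-seq of eGFP-tagged NHR-77 covered whole L2 larvae in 2 biological replicates; the labels enter nhr-77 as the antibody. The deposited lists give regions with a score from the authors' peak caller, and the authors' text files say that the relaxed lists derive from alignments and a control file; which aligner and caller were used is not given in the sources used here. Reads per library are unknown from the files, and no control or coverage track was used here. Results are on ce11 (WBcel235), 1-based, and lists on ce10 were not used here. Genes came from Ensembl release 115, with microRNA names matched through RefSeq.

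The 10 genes, the pathway list and the motifs were chosen with earlier results of these data known, so no test was run. Regions were assigned by summit (2000 bp), ranks of replicates are among nuclear regions, and a replicate held a region when its summit was within 100 bp. Scores were compared within lists only. Percentiles were taken among windows of equal length at other protein-coding genes, ties counted in part. Motifs were searched over 200 bp. Named were all 10 members with each region past the threshold or else the strongest, other pathway genes with a peak, the microRNA genes lin-4, let-7, mir-48, mir-84 and mir-241, neighbours with a nearer 5′ end, and nhr-77 and unc-119; exceptions are stated. The code of the percentile step was checked on the pooled list with its scores shuffled and strong regions placed at some genes. The placed regions outscored all others, so finding them checks the code only. The other steps were not checked in this way. Python 3.11.15, numpy 2.4.6, pandas 2.3.3 and matplotlib 3.10.9 were used. Alternatives were other distances, list lengths and window rules, and each replicate alone.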

Additional observations from a re-analysis of the deposited data

How the results depend on the processing

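Of the 10 genes, 3 had a peak past the threshold; the count was 1 with the upper 207 peaks (1.52% of all genes) and 8 with the 3000 highest pooled regions (16.4%), and ran from 2 to 3 with a replicate left out (2.93% and 2.95% without replicate 2 and replicate 1). It was 2 at 500 bp (1.89%) and 1000 bp (2.28%), where lin-41 was no longer reached. The median percentile was 86.1, and 68.5 to 83.5 with a replicate left out. Regions matched in both replicates numbered 7 with summits within 50 bp and 27 with any overlap, against 15. The share of all pooled regions was computed at 100 bp only, where it was 10.9%, so the other counts have no background beside them. Of the other pathway genes 6 had a peak, 1 at 500 bp, and 6 to 9 with a replicate left out. These counts mix coding and microRNA genes, whereas the shares above are of coding genes only. No share of microRNA genes was computed under the alternatives. The 9 genes without replicate 2 include mir-48 and mir-241, whose windows overlap. Of 100 percentiles of single genes over 10 alternatives, 81 moved by less than the SD between replicates and 19 by more. The lowest was that of lin-28, 15.8 at 500 bp against 82.7. That SD comes from 2 values per gene and ran from 1.44 at lin-41 to 22.3 at myrf-2. Each replicate alone was also among the alternatives. A gene whose replicates differ widely can thus shift far without counting as moved, so the 81 is no measure of stability. Requiring that the nearest protein-coding 5′ end be the gene's own, chosen after seeing the data, left the count at 3. The share of all genes under this rule was not computed. No paired analysis was possible because there was 1 group. Limits: depth is unknown, the score's scale is not stated, and 2 replicates give no test of a single region.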

Other observations

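The replicates gave different orders, with no common direction, at the strongest pooled regions of the let-7 family genes let-7, mir-48, mir-84 and mir-241 and of lin-41 and apl-1. The family is known to repress lin-41 and apl-1, but these 2 do not stand for all the genes it represses. The timing genes lin-14, lin-28, hbl-1 and daf-12 were left out here. These loci were picked after their values were seen, and the differences were not tested. Replicate 1 ranked higher at mir-48 (rank 125, with no match in replicate 2), at let-7 (359 and 15131, with the start of C05G5.2 109 bp from the summit) and at the region 1009 bp upstream of apl-1, the amyloid precursor gene (317 and 22642). Replicate 2 ranked higher at the strongest pooled region of mir-241 (666 in replicate 1 and 171 in replicate 2), at lin-41 (360 and 158) and at mir-84 (1067, with no match in replicate 1). This order holds for that region of mir-241 and not for the whole gene. The windows of mir-48 and mir-241 overlap, and both genes had a peak among the 415 highest regions of replicate 1 alone.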
